A study of Mus musculus with 8 samples.

Results

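Gene expression was compared between mouse morulae with knockdown (KD) of Smarca5, also called Snf2h, and morulae of a group labelled NC. The comparison uses 4 of the 8 libraries of the series, 2 KD and 2 NC, each made from polyadenylated RNA of 20 pooled embryos. The other 4 libraries are blastocysts and are not analysed here. Genes were taken into the comparison when their mean over the 4 morula libraries was at least 10, which kept 13404 of the 19485 genes in the morula table, 12632 of them protein-coding. Gp5, with a mean of 10.002, was the last gene inside this limit, and Ddo, with a mean of 9.99, the first outside it. The labels give no strain, no method of knockdown and no meaning for NC, and they name embryonic days 3.75 and 4.25 for the series without tying a stage to a day. Separate litters or days are not stated for the libraries of a group, and a p-value here therefore reflects the spread among 4 libraries, some or all of which may be technical.

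SMARCA5 is the ATPase of the ISWI chromatin remodelers, which slide nucleosomes and set even spacing between them. ISWI remodeling is known for opening sites bound by the insulator factor CTCF and for work in DNA replication and repair. A morula is the embryo before its fluid cavity forms. Its cells flatten against each other through E-cadherin and actomyosin, the outer cells build an apical surface, and Hippo signalling, which is low in cells with that surface, separates future trophectoderm from inner cell mass.

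The values are normalized abundances, a signal per gene that the authors scaled between libraries, and the 4 columns sum to 17151880 to 17823304. Depth, estimated from the smallest step in each column, was between 16177240 and 18568756 reads. Genes at least 2-fold apart between single libraries were counted first, as a measure of spread. NC 1 and NC 2 differed at least 2-fold at 1560 genes and KD 1 and KD 2 at 1344, while KD and NC libraries of the same number differed at 1501 and 1529 and those of different numbers at 1929 and 2020. Libraries that share a number were thus closer across the groups than NC 1 and NC 2 were to each other. The label was checked with 7 markers of early embryos, whose summed level was 56722 to 64265. Of 18 markers of cumulus, granulosa and stromal cells 9 were in the table and 5 passed the limit of 10. The 9 summed to 400 and 543 in NC and to 502 and 558 in KD. Amhr2 made up most of the sum in both NC libraries but not in the KD libraries. It was lower in KD without overlap, at 279 and 325 in NC and 204 and 243 in KD. Fshr, Cyp19a1, Has2, Ptx3, Col1a2 and Col3a1 were not in the table. Of the 5 tested markers 4 had a higher KD mean, and the median log2 difference of the 5 was 1.30 (0.12 to 1.04 with 1 library left out). The granulosa factor Foxl2 was 38.9 and 28.9 in NC and 109 and 77.1 in KD, without overlap, while Inhbb (21.3 and 154 in NC, 120 and 171 in KD) and Col1a1 (22.3 and 2.07 in NC, 29.8 and 15.2 in KD) had overlapping groups. Of 8 blood markers 1 was tested, and the 4 oviduct and uterine markers in the table, 3 of them tested, summed to 45.1 to 60.7 in every library. Of the 3 tested, 1 was higher and 2 were lower in the mean. Muc1 was 4.24 and 5.52 in NC and 34.5 and 21.6 in KD. Krt14 lay the other way without overlap, at 19.6 and 37.6 in NC and 8.77 and 18.9 in KD. Ovgp1, at 20.0 and 14.4 in NC and 15.1 and 9.81 in KD, had overlapping groups. The part of these cell types in the results was not tested. In pooled embryos, fewer cells of a type and less RNA per cell cannot be told apart.

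Smarca5 (ENSMUSG00000031715; mm10 chromosome 8, 80698507 to 80739497, minus strand) was the one gene that passed the test. Its value was 9678 and 9760 in the NC libraries and 501 and 470 in the KD libraries. Both KD libraries lay far below both NC libraries, and the 2 libraries of each group were close to each other. The difference KD minus NC of the mean log2(value + 1), called the log2 difference from here on, was -4.32 (SE 0.13, limma adjusted p = 1.88e-04). Smarca5-ps, a processed pseudogene on chromosome 4 that reads of Smarca5 could be split with, was 9.23 and 21.7 in NC and 9.37 and 2.64 in KD, and its groups overlapped.

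At the threshold of 0.05 on limma's adjusted p, Smarca5 alone fell (0.00746% of the tested genes) and no gene rose (0.0%). Without adjustment 1391 genes (10.4%) had p under 0.05, 691 of them (5.16%) higher and 700 (5.22%) lower in KD. By their mean, 49.2% of the tested genes were higher and 50.8% lower. The groups did not overlap at 5621 genes (41.9%), with both KD libraries above NC at 2776 (20.7%) and below at 2845 (21.2%). Of those genes 542 were at least 2-fold higher (4.04%) and 353 at least 2-fold lower (2.63%). These shares are the background for the gene groups that follow, and every gene other than Smarca5 is described by its values without having passed the adjusted test. With 2 libraries against 2, an exact permutation test of a single gene cannot give a two-sided p below 0.333, so none is given.

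The large differences were mostly in genes of low abundance. Of the 895 genes at least 2-fold apart, 687 had a mean under 100, where 30.2% of 3923 genes also differed at least 2-fold between NC 1 and NC 2. At means of 1000 and over, 7 of 3805 genes were at least 2-fold apart without overlap, and 0.920% differed as much between the NC libraries. The 1 that was higher was Lin28a, an RNA-binding protein that blocks maturation of let-7 microRNAs. The 6 that were lower were Smarca5, Epb41l2, Klf4, Serpinb6a, Casc4 and Zc3h11a. The shares between NC 1 and NC 2 compare single libraries and set no condition on overlap. They are therefore not the same measure as the counts between groups.

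**Figure D1:**
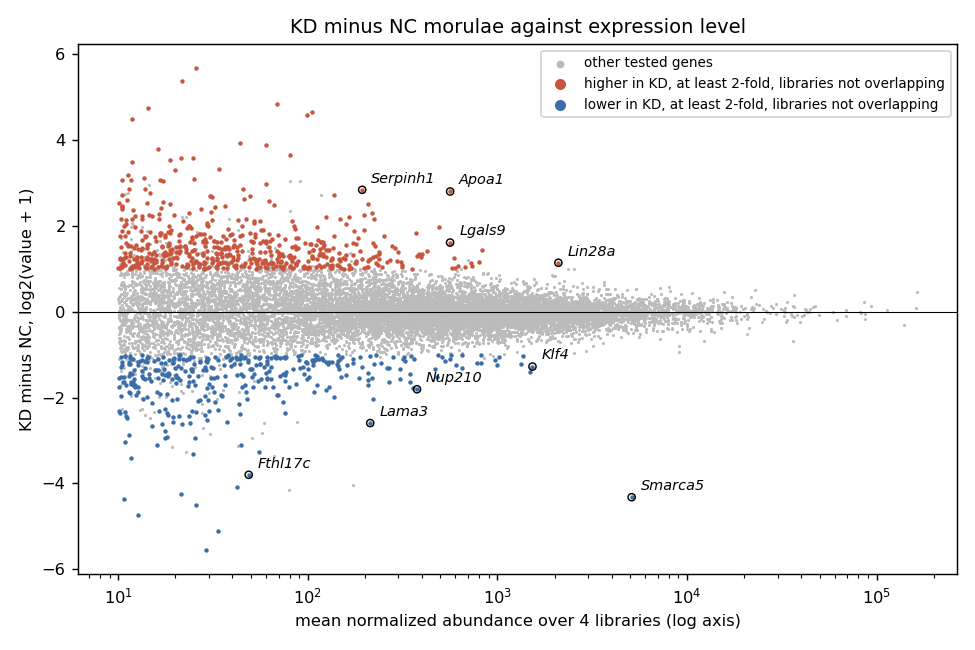
Log2 difference, KD minus NC (vertical axis, log2(value + 1)), against the mean normalized abundance over the 4 libraries (horizontal log axis) for the 13404 tested genes. Red and blue points are the 542 genes higher and the 353 genes lower by at least 2-fold whose KD and NC libraries did not overlap; at means of 1000 and over only 7 of them remain, with Smarca5 at -4.32 apart from the rest.

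Several of the genes with the largest higher values encode secreted or matrix proteins. Serpinh1, the collagen chaperone HSP47 (chromosome 7, 99345376 to 99353239), was 57.6 and 37.6 in NC and 336 and 342 in KD (log2 difference 2.84, SE 0.33, limma adjusted p = 0.303). Hspg2, which encodes the basement membrane proteoglycan perlecan, was 259 and 149 in NC and 883 and 681 in KD (1.97, SE 0.31). Apoa1, the main apolipoprotein of high-density lipoprotein, was 205 and 89.6 in NC and 1213 and 744 in KD (2.80, SE 0.43). In all 3 genes the lower KD library was above the higher NC library by a wider gap than that between the NC libraries. Dmkn, a secreted epithelial protein, was 40.6 and 80.4 in NC and 265 and 272 in KD, and Lgals9, a galectin that binds sugars on cell surfaces, was 256 and 299 in NC and 854 and 841 in KD (1.61, SE 0.19). Siglecg, a sialic acid receptor known from B cells, was 111 and 57.0 in NC and 358 and 363 in KD. Of the 5 tested cumulus, granulosa and stromal markers 4 had a higher KD mean. Foxl2 lay the same way as these genes without overlap. Amhr2 lay the other way without overlap, at 279 and 325 in NC and 204 and 243 in KD. The collagen gene Col1a1 had overlapping groups, and Col1a2 and Col3a1 were not in the table. The part of these cell types in the values was not tested.

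Other genes with higher values had varied roles. Lin28a was 1495 and 1134 in NC and 3035 and 2716 in KD (log2 difference 1.14, SE 0.17, limma adjusted p = 0.305). Fscn1, which bundles actin filaments, was 1601 and 1520 in NC and 2906 and 3345 in KD (SE of the log2 difference 0.14). Arhgef2, an activator of RhoA, was 58.4 and 82.9 in NC and 468 and 257 in KD, and Arhgap45, a GTPase-activating protein, was 59.9 and 75.2 in NC and 346 and 307 in KD. Both regulators were thus several-fold higher in each KD library, though their KD libraries were further apart for Arhgef2. Stx2, a membrane fusion protein of the syntaxin family, was 50.2 and 56.6 in NC and 244 and 241 in KD, and Wdr35, a subunit of the transport machinery of cilia, was 377 and 423 in NC and 841 and 839 in KD. Nfatc4, a calcium-regulated transcription factor, was 40.8 and 26.2 in NC and 331 and 149 in KD. Slc19a3, a thiamine transporter, was 39.0 and 74.3 in NC and 175 and 545 in KD, a wider gap between the KD libraries, relative to their level, than in the other genes named beside it.

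On the lower side, Nup210, a membrane-spanning subunit of the nuclear pore (chromosome 6, 91013068 to 91116829), was 584 and 586 in NC and 145 and 191 in KD (log2 difference -1.81, SE 0.23, limma adjusted p = 0.303). Gng12, a G protein gamma subunit, was 527 and 577 in NC and 141 and 184 in KD (-1.77, SE 0.24). Aes, a short Groucho-family corepressor, was 709 and 715 in NC and 222 and 275 in KD (-1.52, SE 0.20). The NC libraries were nearly equal in Nup210 and Aes, and both KD libraries were below them. Klf4, a Krüppel-like pluripotency factor, was 1958 and 2369 in NC and 774 and 1018 in KD (-1.28, SE 0.19). Epb41l2, which links actin and spectrin to the membrane, was 2130 and 1611 in NC and 808 and 796 in KD, and Clint1, a clathrin adaptor of the Golgi, was 1191 and 1094 in NC and 516 and 479 in KD. Ccng1, a cyclin induced by p53, was 3635 and 4064 in NC and 2103 and 1976 in KD.

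Further large lower values were found in genes of varied roles, matrix and cell surface proteins among them. Lama3, the alpha chain of an epithelial laminin, was 485 and 252 in NC and 46.8 and 69.5 in KD (log2 difference -2.59, SE 0.41, limma adjusted p = 0.316). Plau, the urokinase plasminogen activator, was 400 and 307 in NC and 113 and 64.2 in KD (-2.03, SE 0.35). Mst1r, the receptor tyrosine kinase RON, was 149 and 253 in NC and 63.1 and 51.4 in KD. In Lama3 and Mst1r the NC libraries were themselves further apart than the KD libraries, with no overlap between groups. Chga, a protein of secretory granules, was 431 and 381 in NC and 144 and 118 in KD. Pip4k2a, a phosphoinositide kinase, was 246 and 143 in NC and 72.5 and 38.0 in KD.

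**Figure D2:**
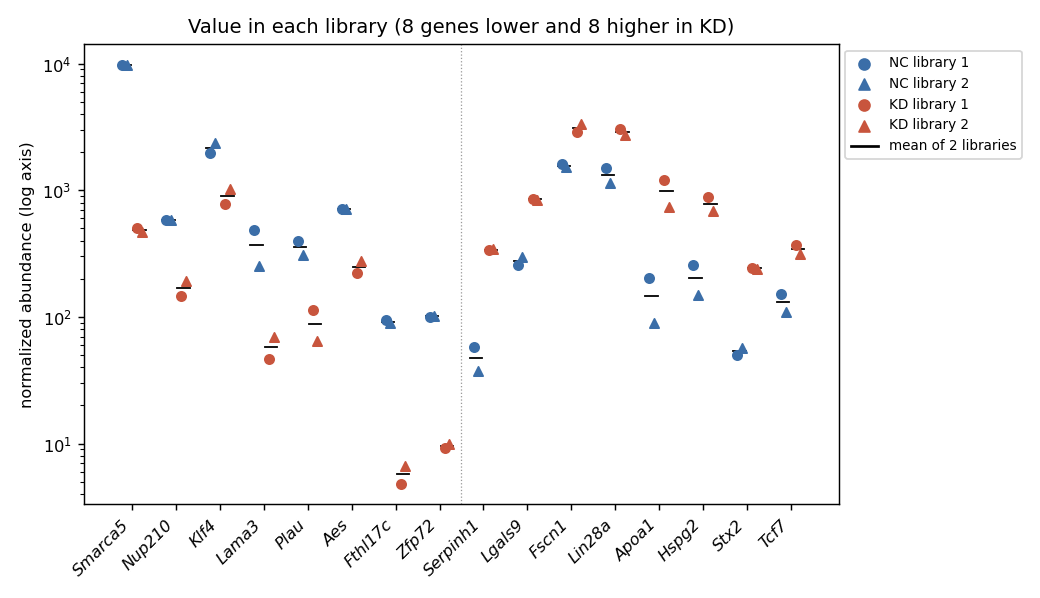
Normalized abundance (log axis) of 16 genes in each of the 4 libraries, 8 lower in KD to the left of the dotted line and 8 higher to the right; circles and triangles are libraries 1 and 2 of a group and the bars are group means. In each gene the 2 KD libraries lie on one side of the 2 NC libraries, and of the 16 only Smarca5 passed the adjusted test.

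Genes present in one group and nearly absent from the other were few. A value of at least 50 in both NC libraries and at most 10 in both KD libraries was found for 3 genes (0.0224%), and the reverse for 1 (0.00746%). Entpd1, the ectonucleotidase CD39, was 81.1 and 79.1 in NC and 2.68 and 5.23 in KD. Zfp72, a zinc finger gene, was 100.2 and 101.4 in NC and 9.15 and 9.95 in KD, and Fthl17c was 94.0 and 89.5 in NC and 4.83 and 6.61 in KD. Both libraries of each group agree within a few units in Entpd1 and Zfp72. Cacna1i, a T-type voltage-gated calcium channel, was 8.29 and 3.35 in NC and 64.4 and 60.2 in KD.

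Fthl17c belongs to a run of 5 neighbouring genes on the X chromosome (8962134 to 9063861), Fthl17b to Fthl17f, which resemble the ferritin heavy chain and are known as X-linked genes of early embryos. All 5 were at least 2-fold lower in the mean, with no overlap of the groups. Fthl17b was 40.4 and 41.4 in NC and 3.89 and 0 in KD, Fthl17d was 23.7 and 38.0 in NC and 3.87 and 6.61 in KD, Fthl17e was 21.9 and 32.9 in NC and 11.6 and 6.62 in KD, and Fthl17f was 112 and 82.3 in NC and 44.5 and 45.2 in KD. Their transcripts are 96.2% to 99.6% identical to each other, so reads could be split among them and the value of each is uncertain. Fthl17a, elsewhere on the X chromosome (85249679 to 85270288) and 71.7% to 73.2% identical to the others, was 15.5 and 5.14 in NC and 32.9 and 17.6 in KD, higher rather than lower.

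The sequence upstream of these genes shows how alike the run is and how it differs from Fthl17a. RefSeq promoter sequences on GRCm38.p6, the assembly of mm10, were searched in the 250 bases before the gene start for TATAAA on the gene's own strand. It was found in 5 of the 6 genes, against 7.59% of 32851 promoters. The 5 stretches are near-copies of each other, so they do not count as separate matches against that share. TATAAA began 61 bases before the start in Fthl17b and Fthl17c, 129 in Fthl17d, 54 in Fthl17e and 121 in Fthl17f. Stretches of 80 bases follow, 5′ to 3′ on the gene's strand, with TATAAA in capitals and, for Fthl17a, the 80 bases before its start, which do not hold it.
Fthl17b: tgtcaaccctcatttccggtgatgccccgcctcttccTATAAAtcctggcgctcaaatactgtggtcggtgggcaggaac
Fthl17c: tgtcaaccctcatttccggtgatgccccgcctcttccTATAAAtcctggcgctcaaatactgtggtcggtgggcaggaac
Fthl17d: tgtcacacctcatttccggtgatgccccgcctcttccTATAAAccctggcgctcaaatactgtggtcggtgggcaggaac
Fthl17e: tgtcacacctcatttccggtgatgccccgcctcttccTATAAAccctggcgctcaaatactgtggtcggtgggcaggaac
Fthl17f: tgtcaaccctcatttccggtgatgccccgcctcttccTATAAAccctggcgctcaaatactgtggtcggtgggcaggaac
Fthl17a: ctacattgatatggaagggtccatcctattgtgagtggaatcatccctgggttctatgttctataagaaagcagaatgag
These stretches lie at chrX:8962994-8963073 (Fthl17b), chrX:8976578-8976657 (Fthl17c), chrX:8986759-8986838 (Fthl17d), chrX:9033395-9033474 (Fthl17e), chrX:9062932-9063011 (Fthl17f) and chrX:85249597-85249676 (Fthl17a). Those of Fthl17b and Fthl17c differ at 0 of 80 bases, and so do those of Fthl17d and Fthl17e. That of Fthl17f differs from Fthl17b at 1 base and from Fthl17d at 2, and those of Fthl17b and Fthl17d differ at 3. The log2 differences were -4.24 for Fthl17b and -3.80 for Fthl17c, -2.35 for Fthl17d and -1.51 for Fthl17e, and -1.08 for Fthl17f. The identical pairs thus had neighbouring values, while Fthl17f, 1 base from Fthl17b, was furthest from it. A relation between sequence and value was not tested.

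The unfolded protein response was the gene group whose members were most often higher. It adjusts the folding capacity of the endoplasmic reticulum through the sensors IRE1, PERK and ATF6, which raise chaperones and degradation factors. Of 30 tested members 25 were higher in KD, against 49.2% of all tested genes, and 18 had both KD libraries above both NC libraries (all genes 20.7%). The median log2 difference was 0.30, against -0.01 over all tested genes, and 0.18 to 0.41 with 1 library left out. No member passed the adjusted test.

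Chaperones and oxidoreductases of the endoplasmic reticulum were among the higher members. Hspa5, the chaperone BiP, was 12797 and 13373 in NC and 17365 and 18808 in KD (log2 difference 0.47, limma adjusted p = 0.362). Pdia6, a disulfide isomerase, was 4652 and 4121 in NC and 6042 and 6662 in KD (0.53), and Sdf2l1, a BiP cofactor, was 889 and 964 in NC and 1298 and 1721 in KD (0.69). Pdia3 was 7337 and 8041 in NC and 9526 and 9640 in KD, and Hsp90b1, the chaperone GRP94, was 8839 and 8511 in NC and 10146 and 10969 in KD. For each of these 5 genes the NC libraries were closer together than the groups were. Of the degradation factors, Herpud1 was 94.1 and 93.1 in NC and 186 and 211 in KD (1.07), while Sel1l, the scaffold of the same ubiquitin ligase complex, was 627 and 658 in NC and 422 and 455 in KD (-0.55). The 2 members below NC in both KD libraries were Sel1l and Eif2ak3, which encodes PERK, at 578 and 475 in NC and 426 and 457 in KD.

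The ER stress response element, CCAAT and CCACG with 9 bases of any kind between them, is the site known to be bound by NF-Y and ATF6. It was searched on both strands of the 250 bases before the start, and 26 of the 30 members had a RefSeq promoter. It was found in 9 of the 26 (34.6%), against 0.113% of all 32851 promoters (37). The list was counted by gene and the background by promoter sequence. The list is made of genes known from this response, so its share describes their sequence and does not bear on KD. The 5 shown belong to members that had both KD libraries above NC, with the fixed letters in capitals and 15 bases on each side.
Hspa5: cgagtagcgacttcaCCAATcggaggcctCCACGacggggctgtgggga
Pdia6: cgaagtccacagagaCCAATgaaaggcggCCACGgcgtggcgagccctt
Dnajc3: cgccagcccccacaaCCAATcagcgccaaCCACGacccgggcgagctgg
Hsp90b1: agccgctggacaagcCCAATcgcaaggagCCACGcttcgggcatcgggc
Creld2: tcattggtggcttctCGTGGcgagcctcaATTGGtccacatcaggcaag
Their positions are chr2:34772010-34772058, chr12:17266476-17266524, chr14:118937812-118937860, chr10:86705623-86705671 and chr15:88819505-88819553, in that order, and Creld2 holds the element on the opposite strand. Hsp90b1 holds a further copy nearer its start. The 9 members with the element (Calr, Canx, Creld2, Derl3, Dnajc3, Hsp90b1, Hspa5, Pdia6 and Syvn1) had log2 differences of 0.03 to 0.74 with a median of 0.45, and 6 of them had both KD libraries above NC. The 17 without it had a median of 0.31, and 10 had both KD libraries above NC. A match of letters does not show that a factor was bound there.

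Actin genes had the lowest median of the lists with at least 10 tested members. Formins build unbranched filaments, alpha-actinins and fascin bundle them, and cofilin takes them apart. Of 22 tested members 17 were lower in KD and 11 had both KD libraries below NC (all genes 21.2%), with a median log2 difference of -0.32 (-0.34 to -0.15 with 1 library left out). The formin Fmnl3 was 770 and 853 in NC and 427 and 447 in KD (-0.89, limma adjusted p = 0.362), and the formin Diaph2 was 403 and 435 in NC and 260 and 222 in KD (-0.80). The alpha-actinin Actn1 was 5445 and 5999 in NC and 3771 and 4324 in KD (-0.50), and Tmsb10, which binds actin monomers, was 3783 and 3607 in NC and 2763 and 2544 in KD (-0.48). The bundling proteins Fscn1 and Espn stood on the other side, Fscn1 as given above and Espn at 82.0 and 99.0 in NC and 169 and 218 in KD (1.08). The group therefore did not move one way, and the actin genes themselves, Actb and Actg1, had overlapping groups.

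Compaction and apical polarity genes were lower more often than higher. Of 23 tested members 17 were lower. Both KD libraries lay below NC for 10 (43.5%, all genes 21.2%) and above for 0 (0.0%, all genes 20.7%). The median log2 difference was -0.18 (-0.28 to -0.06 with 1 library left out). Rock2, a kinase that activates myosin, was 1870 and 2110 in NC and 1186 and 1335 in KD (-0.66, limma adjusted p = 0.362). Of the apical complex, Pard6b was 3701 and 3411 in NC and 2692 and 2857 in KD (-0.36), and Prkcz, an atypical protein kinase C, was 1969 and 1841 in NC and 1535 and 1428 in KD (-0.36). Cdh1, the adhesion molecule E-cadherin, was 9761 and 9102 in NC and 7859 and 8000 in KD (-0.25), and Ctnna1, the alpha-catenin that ties it to actin, was 11046 and 10108 in NC and 8416 and 9168 in KD (-0.27). These differences are below 2-fold, with the KD libraries of all 5 genes below the NC libraries.

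**Figure D3:**
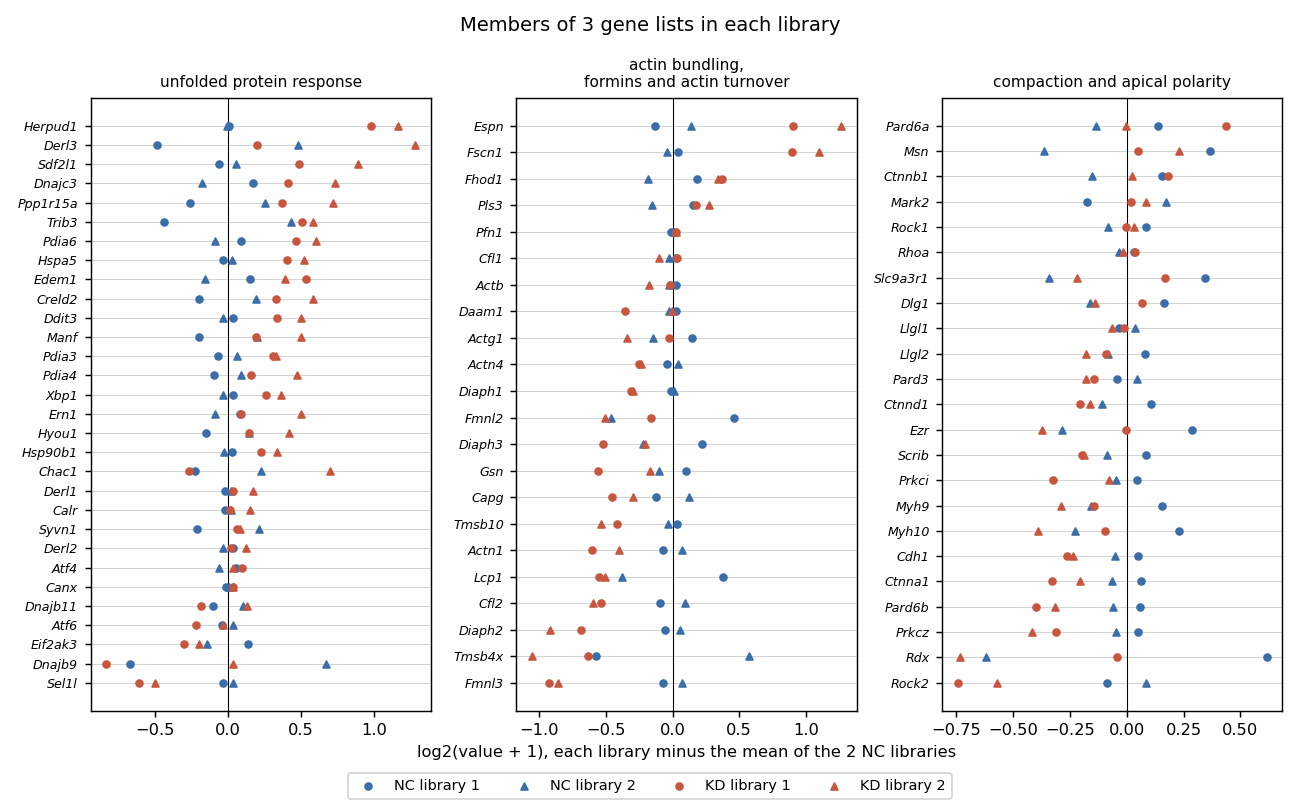
Log2(value + 1) in each library minus the mean of the 2 NC libraries (horizontal axes) for the tested members of the unfolded protein response (30), actin (22) and compaction and polarity (23) lists, ordered by their log2 difference; blue marks NC, red KD, circles library 1 and triangles library 2. In the first panel 18 members have both red points right of both blue ones, in the second 11 and in the third 10 have both to the left.

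Adhesion to matrix and between cells was mixed. Of 20 integrin adhesion genes 11 were higher, and 4 had both KD libraries above and 5 below NC. These shares, 20.0% and 25.0%, are near those of all tested genes (20.7% and 21.2%). Zyx, a focal adhesion protein, was 781 and 742 in NC and 1382 and 1224 in KD (log2 difference 0.77, limma adjusted p = 0.362), and the collagen receptor subunit Itga1 was 47.0 and 44.8 in NC and 109 and 119 in KD. The laminin receptor subunit Itga6 was 2450 and 2266 in NC and 1842 and 1576 in KD (-0.47), and Itgb3 was 58.5 and 38.2 in NC and 17.3 and 14.1 in KD. Of 21 basement membrane genes 7 had both KD libraries above NC and 1 below (33.3% and 4.76%, all genes 20.7% and 21.2%). Their median log2 difference of 0.06, however, became -0.06 when a trend with GC content was removed and -0.02 without KD replicate 2. Lamb1, a laminin beta chain, was 1804 and 1553 in NC and 3321 and 2241 in KD, and P3h1, a collagen prolyl hydroxylase, was 40.4 and 2.24 in NC and 77.9 and 63.2 in KD. Tight junction genes divided 4 above and 5 below among 13 (30.8% and 38.5%, all genes 20.7% and 21.2%). Magi1 was 274 and 295 in NC and 154 and 158 in KD (-0.86), and the claudin Cldn6 was 295 and 408 in NC and 556 and 693 in KD (0.84).

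Components of the Hippo pathway were lower in 17 of 21 cases. Both KD libraries lay below NC for 7 (33.3%, all genes 21.2%) and above for 3 (14.3%, all genes 20.7%). The median log2 difference was -0.13 (-0.19 to -0.07 with 1 library left out). Upstream, Wwc1, the scaffold KIBRA, was 1062 and 842 in NC and 472 and 633 in KD (-0.79, limma adjusted p = 0.377), and Wwc2 was 5083 and 4675 in NC and 3774 and 3894 in KD (-0.35). Amotl2, an angiomotin that holds YAP at junctions, was 1755 and 1489 in NC and 2439 and 2718 in KD (0.67). Of the DNA-binding partners of YAP, Tead1 was 1754 and 1391 in NC and 2213 and 2113 in KD (0.47), while Tead2 was 726 and 807 in NC and 461 and 596 in KD (-0.54). The target genes Ccn2 (499 and 463 in NC, 364 and 401 in KD) and Ccn1 (422 and 427 in NC, 335 and 385 in KD) were lower in both KD libraries.

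Genes of BMP, Nodal and activin signalling were also lower more often. Of 20 tested genes of these pathways 15 were lower. Both KD libraries were below NC for 7 (35.0%, all genes 21.2%) and above for 1 (5.0%, all genes 20.7%). The median log2 difference was -0.19 (-0.39 to -0.01 with 1 library left out). Bmpr2, the type II BMP receptor, was 1025 and 990 in NC and 612 and 588 in KD (-0.75, limma adjusted p = 0.362), and Pcsk6, a protease that cleaves Nodal precursors, was 1756 and 2062 in NC and 1409 and 1439 in KD (-0.42). The receptor genes Acvr2a (460 and 506 in NC, 324 and 407 in KD) and Bmpr1a (1398 and 1326 in NC, 1072 and 1207 in KD) lay the same way. Among 18 FGF and MAPK genes, where the median was -0.01, Fgfr3 was 676 in both NC libraries and 257 and 417 in KD (-1.04), and Sos1, a Ras exchange factor, was 3243 and 3908 in NC and 2065 and 3015 in KD.

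Wnt pathway genes had members far apart in both directions. Of 18 tested, 7 had both KD libraries above NC and 5 below (38.9% and 27.8%, all genes 20.7% and 21.2%). The median log2 difference was 0.07. The transcription factor Tcf7 was 152 and 109 in NC and 368 and 315 in KD (1.40, limma adjusted p = 0.362), and Dkk1, a secreted inhibitor, was 18.5 and 7.23 in NC and 150 and 64.1 in KD (2.97). Axin2, a negative regulator that is itself a Wnt target, was 254 and 250 in NC and 345 and 378 in KD, and Sfrp1, another secreted inhibitor, was 671 and 667 in NC and 964 and 951 in KD. The co-receptor Lrp6 was 1078 and 965 in NC and 735 and 762 in KD (-0.45). Aes, described above, was the lowest of the group, and the related Groucho genes Tle1 (-0.09) and Tle3 (-0.27) were closer to NC.

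Lineage genes differed member by member. Among 22 pluripotency genes 4 had both KD libraries above NC and 4 below (18.2% each). These shares are near those of all tested genes (20.7% and 21.2%), and the median log2 difference was -0.08. L1td1, an RNA-binding protein, was 1410 and 1992 in NC and 3560 and 3136 in KD (0.99, limma adjusted p = 0.362), Utf1, a chromatin factor, was 1193 and 1240 in NC and 1688 and 1618 in KD (0.44), and Tfcp2l1, a factor of naive pluripotency, was 27194 and 21113 in NC and 18914 and 17884 in KD (-0.38). Of 9 primitive endoderm factors and receptors 5 were above and 1 was below in both KD libraries (55.6% and 11.1%, all genes 20.7% and 21.2%). Their median log2 difference was 0.18 (0.18 to 0.35 with 1 library left out). Pdgfra, the receptor that marks this lineage, was 357 and 547 in NC and 1179 and 809 in KD, and Sox17 was 16.1 in one NC library, listed at 0 in the other, and 186 and 72.7 in KD. Gata4 was 51.5 and 172 in NC and 181 and 351 in KD, so that its upper NC and lower KD library nearly met. Hnf4a went the other way, from 60.3 in both NC libraries to 28.7 and 26.3 in KD (-1.11). The more abundant Gata6 had overlapping groups, at 9078 and 9759 in NC and 10941 and 9716 in KD (0.13).

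Trophectoderm factors showed little common movement. Of 13 tested 1 was above and 2 were below NC in both KD libraries (7.69% and 15.4%, all genes 20.7% and 21.2%). The median log2 difference of -0.03 became 0.01 after quantile normalization. Arid3a, a DNA-binding factor of this lineage, was 429 and 419 in NC and 643 and 815 in KD (0.77, limma adjusted p = 0.362), and Tfap2c was 5922 and 6812 in NC and 4931 and 5325 in KD (-0.31). Cdx2 had overlapping groups, 5053 and 2988 in NC and 4815 and 3579 in KD, and the gap between its NC libraries was wider than that between the group means. Of 12 keratin and desmosome genes 4 were above and 5 below NC in both KD libraries (33.3% and 41.7%, all genes 20.7% and 21.2%). Their median of 0.03 ranged from -0.24 to 0.21 with 1 library left out. The desmosome genes Dsp (4522 and 3873 in NC, 2748 and 2755 in KD) and Pkp2 (896 and 834 in NC, 486 and 566 in KD) were lower in both KD libraries. The keratin gene Krt18 was 6458 and 6062 in NC and 4489 and 4835 in KD, and its partner Krt8 was 13252 and 10961 in NC and 9658 and 9120 in KD, while Krt7 was 104 and 89.7 in NC and 140 and 165 in KD. Krt19, the member at least 2-fold apart without overlap, was 22.1 and 24.8 in NC and 37.6 and 87.3 in KD (1.26). Of the genes for cavity fluid, the water channel Aqp3 was 9473 and 14089 in NC and 4417 and 8305 in KD (-0.93), and the sodium pump subunit Atp1b1 was 1532 and 977 in NC and 2010 and 1867 in KD (0.66).

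Glycolysis genes were higher in 16 of 24 cases. In both KD libraries 9 were above and 4 below NC (37.5% and 16.7%, all genes 20.7% and 21.2%). The median log2 difference was 0.18 (0.08 to 0.23 with 1 library left out). The enzymes came first. Gapdh was 6140 and 6756 in NC and 9353 and 9763 in KD (0.57, limma adjusted p = 0.362), Pgk1 was 752 and 613 in NC and 1239 and 1115 in KD (0.79), and Ldha, which turns pyruvate into lactate, was 462 and 621 in NC and 843 and 975 in KD (0.76). The glucose transporter Slc2a1 was 1429 and 1719 in NC and 2023 and 2253 in KD (0.45). Lower in both KD libraries were both subunits of the mitochondrial pyruvate carrier, Mpc1 (1274 and 1513 in NC, 950 and 1054 in KD) and Mpc2 (867 and 1177 in NC, 693 and 668 in KD), together with the hexokinase Hk2 and the lactate transporter Slc16a3. The median was 0.09 after quantile normalization and 0.10 with the GC trend removed.

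Other metabolic groups had medians closer to 0. The 76 nuclear genes of oxidative phosphorylation had a median log2 difference of -0.01, and the 13 mitochondrially encoded genes had a median of -0.05. Of the 76, 12 were above and 16 below NC in both KD libraries. These shares, 15.8% and 21.1%, are near or below those of all tested genes (20.7% and 21.2%). Of 19 genes of serine, one-carbon and amino acid supply 13 were lower. In both KD libraries 6 were below and 3 above NC (31.6% and 15.8%, all genes 21.2% and 20.7%). The median was -0.12 (-0.15 to -0.05 with 1 library left out). Gldc, which cleaves glycine, was 21928 and 27136 in NC and 16917 and 17043 in KD (-0.52, limma adjusted p = 0.362), and Psph, which completes serine synthesis, was 177 and 176 in NC and 284 and 315 in KD (0.76). The cholesterol list had a median of 0.12 but ranged from -0.38 to 0.69 with 1 library left out, below 0 without KD replicate 1 or NC replicate 2. Within it Sc5d, a sterol desaturase, was 234 and 178 in NC and 111 and 22.8 in KD. Gpx3, a secreted glutathione peroxidase, was 60.9 and 23.7 in NC and 165 and 98.2 in KD.

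Most ribosomal protein genes were slightly higher. Of 80 tested 61 were higher, and 35 had both KD libraries above NC and 2 below (43.75% and 2.5%, all genes 20.7% and 21.2%). The median log2 difference was 0.09 (0.04 to 0.16 with 1 library left out). Rpl10 was 5592 and 6209 in NC and 7575 and 7529 in KD (0.36, limma adjusted p = 0.403). Genes of ribosome biogenesis, which process ribosomal RNA in the nucleolus, lay the other way, with 25 of 31 lower. In both KD libraries 10 were below and 1 above NC (32.3% and 3.23%, all genes 21.2% and 20.7%). Their median was -0.12, and 0.01 without NC replicate 2. Nat10, an RNA acetyltransferase, was 2317 and 2342 in NC and 1684 and 1947 in KD, Wdr75 was 2360 and 2254 in NC and 1332 and 1998 in KD, and Fbl, the methyltransferase fibrillarin, was the 1 member above, at 5952 and 6409 in NC and 7468 and 7250 in KD. In the RNA exosome, Exosc6 was 126 and 8.31 in NC, and KD 1 and KD 2 list it at 0.

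Nuclear pore genes were 10 below and 5 above NC in both KD libraries among 28 (35.7% and 17.9%, all genes 21.2% and 20.7%). Their median log2 difference was -0.08. After Nup210, the basket protein Tpr was 6018 and 5460 in NC and 4028 and 4670 in KD (-0.40, limma adjusted p = 0.413), Nup160 was 1682 and 1845 in NC and 1326 and 1316 in KD (-0.42), and Nup153 was 2815 and 2829 in NC and 2131 and 2263 in KD (-0.36). Nup210 stood apart in size from the other members named. Among 26 genes of lysosomes and autophagy 5 were below and 1 was above NC in both KD libraries (19.2% and 3.85%, all genes 21.2% and 20.7%). Gabarapl1, an ATG8 family protein of autophagosomes, was 872 and 860 in NC and 387 and 471 in KD (-1.02).

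Most chromatin lists were close to NC. The 11 tested ISWI partners of SMARCA5 had a median log2 difference of -0.12 (-0.15 to -0.05 with 1 library left out). Of these, 6 were below NC in both KD libraries (54.5%, all genes 21.2%) and 0 above (all genes 20.7%). Medians were -0.05 to -0.01 for SWI/SNF (24 tested), NuRD (12), CHD, INO80 and ATRX remodelers (18), CTCF and cohesin (15), Polycomb (28), heterochromatin (13) and histone chaperone genes (17). In these 8 lists 1 gene was at least 2-fold apart without overlap, the histone chaperone Npm2, at 2.75 and 2.06 in NC and 16.4 and 23.1 in KD. Ctcf itself was 2934 and 2811 in NC and 2750 and 2702 in KD (-0.08, limma adjusted p = 0.873). In the 7 lists other than the ISWI partners the median changed sign under at least 1 alternative, SWI/SNF and Polycomb included (0.05 at the highest with 1 library left out in both), so no direction is given for them. Gatad2a, a NuRD subunit, was 4437 and 4213 in NC and 3155 and 3329 in KD (-0.42), and Phc3, a Polycomb protein, was 127 and 123 in NC and 57.0 and 70.3 in KD (-0.97).

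DNA repair genes were lower in 16 of 23 cases. In both KD libraries 8 were below and 2 above NC (34.8% and 8.70%, all genes 21.2% and 20.7%). The median log2 difference was -0.15 (-0.23 to -0.09 with 1 library left out). Xrcc5, the Ku80 subunit that binds broken ends, was 607 and 284 in NC and 185 and 146 in KD (-1.34, limma adjusted p = 0.399), while its partner Xrcc6 was 450 and 370 in NC and 599 and 495 in KD (0.42). The checkpoint kinase genes Atr (597 and 439 in NC, 348 and 337 in KD) and Atm (1629 and 2231 in NC, 1361 and 1402 in KD) were lower in both KD libraries. DNA replication (32 tested) and mitosis genes (26) had medians of -0.02 and -0.03. The replication protein Rpa1 was 1988 and 1911 in NC and 2736 and 2378 in KD, and Anln, a scaffold of the cleavage furrow, was 4003 and 3833 in NC and 2696 and 3172 in KD.

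Medians of the p53 and BCL2 lists were above 0 with all 4 libraries and below 0 without NC replicate 1. Of 17 p53 genes and targets 5 were above and 2 below NC in both KD libraries (29.4% and 11.8%, all genes 20.7% and 21.2%). Their median log2 difference of 0.18 was -0.02 without NC replicate 1. The 2 below were Ccng1 and Zmat3, an RNA-binding p53 target (1484 and 1661 in NC, 959 and 982 in KD), and Btg2, an antiproliferative target, was 546 and 945 in NC and 1323 and 1281 in KD. Of 12 BCL2 family genes 7 were higher, and 5 were above and 0 below NC in both KD libraries (41.7% and 0.0%, all genes 20.7% and 21.2%). Their median of 0.10 was -0.08 without NC replicate 1. The 5 above include the pore-forming effectors Bak1 (134 and 117 in NC, 350 and 245 in KD) and Bax (2529 and 2730 in NC, 3558 and 3041 in KD). Of 13 interferon and antigen presentation genes 5 were above and 2 below (38.5% and 15.4%, all genes 20.7% and 21.2%). Their median was 0.30 (0.20 to 0.44 with 1 library left out). Tap1, the peptide transporter of antigen presentation, was 523 and 670 in NC and 973 and 1201 in KD (0.87, limma adjusted p = 0.362), and the RNA editing enzyme gene Adar was 742 and 686 in NC and 443 and 512 in KD (-0.58).

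Imprinted genes, which are expressed from a single parental copy, were higher in 13 of 21 cases. In both KD libraries 6 were above and 3 below NC (28.6% and 14.3%, all genes 20.7% and 21.2%). The median log2 difference was 0.27 (0.10 to 0.22 with 1 library left out). Slc38a4, an amino acid transporter, was 1164 and 1167 in NC and 876 and 708 in KD (-0.57, limma adjusted p = 0.402), and Cdkn1c, a cell cycle inhibitor, was 92.6 and 213 in NC and 63.1 and 65.5 in KD. Snrpn was 3300 and 3255 in NC and 3914 and 3815 in KD (0.24). None of 8 tested two-cell-stage genes had KD and NC libraries apart (all genes 41.9%). Of 14 oocyte transcripts 4 were above and 3 below NC (28.6% and 21.4%, all genes 20.7% and 21.2%). Tle6, a member of the subcortical maternal complex, was 63.9 and 66.3 in NC and 193 and 123 in KD. Among the 3 below, Ooep was 177 and 144 in NC and 124 and 115 in KD. Nlrp4f, also below, was 57.8 and 16.3 in NC and 9.92 and 10.6 in KD.

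**Figure D4:**
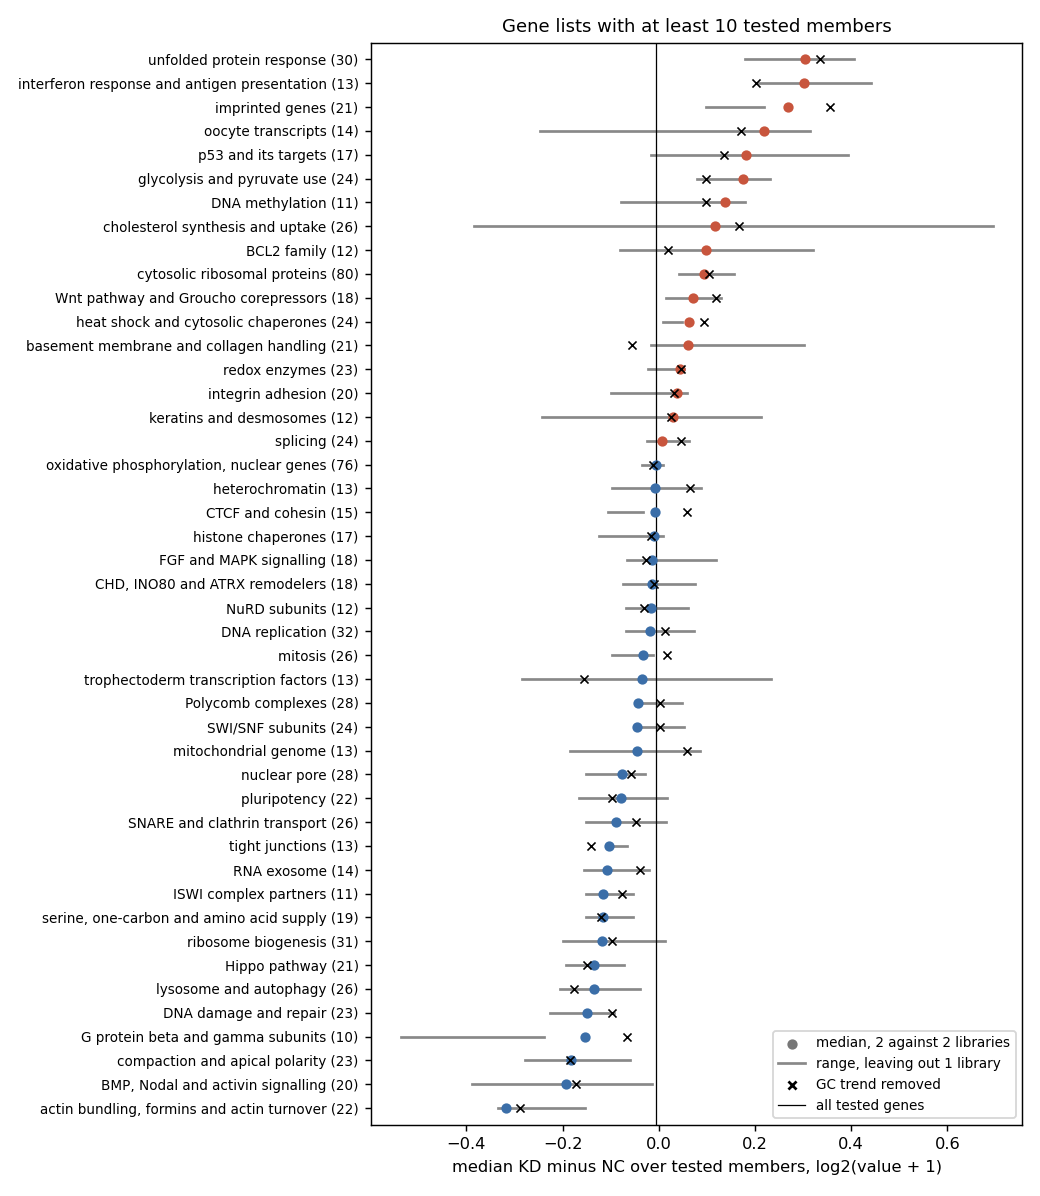
Median log2 difference over the tested members (number in brackets) of each gene list with at least 10 of them; points are the medians with all 4 libraries, grey lines the range with 1 library left out, crosses the medians with the GC trend removed, and the vertical line the median of all tested genes (-0.01). The unfolded protein response, at 0.30, and actin, at -0.32, lie at the ends with grey lines clear of 0, and most chromatin lists lie near 0.

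Base composition moved with the difference and is given beside these groups. The genes were divided into 5 quintiles by the GC content of their exons. In the lowest quintile (median 41.1%) the median log2 difference was -0.09, and in the highest (58.1%) it was 0.13, with 45 and 201 genes at least 2-fold higher and 85 and 55 lower. NC 2 minus NC 1 ran from -0.09 to 0.08 over the same quintiles and KD 2 minus KD 1 from -0.02 to 0.03. With the trend removed the median was 0.33 for the unfolded protein response, -0.29 for actin, -0.18 for compaction, -0.15 for Hippo, -0.17 for BMP and Nodal, and 0.20 for interferon genes. It moved toward that of all genes for DNA repair (-0.15 to -0.10), the ISWI partners (-0.12 to -0.08) and the RNA exosome (-0.11 to -0.04). Exonic length moved with the difference too. The median log2 difference was 0.04 in the shortest quintile (median 1500 bases) and -0.07 in the longest (9635 bases). NC 2 minus NC 1 ran from 0.07 to -0.06 over the same quintiles. The ribosomal protein genes are short (median 1754.5 bases) and the ISWI partners long (10730 bases). No length trend was removed, and the part of base composition or length in single genes and lists was not tested.

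**Figure D5:**
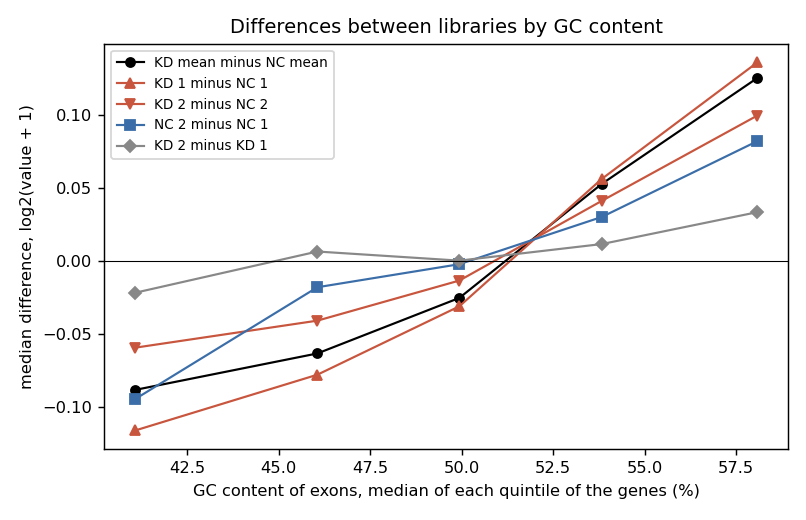
Median difference of log2(value + 1) between libraries (vertical axis) in 5 quintiles of the genes by GC content of their exons (horizontal axis, median percent of each quintile). KD minus NC runs from -0.09 to 0.13, and the difference between the 2 NC libraries, from -0.09 to 0.08, runs the same way.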

How the data were processed

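RNA of 20 embryos per library was prepared as polyadenylated RNA and sequenced as paired reads of 150 bases, per the labels' protocols. The authors deposited values that are already normalized, a signal for each gene; Salmon 0.14.1 and DESeq2 with the mm10 build are named in the submitters' processing notes, without their roles. In 95.0% to 100% of genes found in a single library, values lay on whole multiples of 1 step (tolerance 0.01), which gave the estimated depth; whole reads were not recovered for the other genes, so no count test was run, and depth sets no interval for single values. Groups were taken from the sample titles. On the log2(value + 1) scale, genes with a mean of at least 10 were fitted in limma 3.58.1 (R 4.3.3; mean-variance trend, Benjamini-Hochberg adjustment, threshold 0.05), KD minus NC, 2 libraries against 2. This scale understates differences of low genes. Symbols matched 99.0% of tested genes; positions are from GENCODE vM21 on mm10 and promoter sequences from RefSeq on GRCm38.p6.

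The comparison, the gene lists and the rule for named genes were chosen with earlier results of these data known. The rule takes Smarca5, the 12 higher and 12 lower protein-coding genes with the smallest p, the 10 largest log2 differences in each direction among genes without overlap and with a mean of at least 100, and in each list up to 4 members with the smallest p, members at least 2-fold apart without overlap, and the markers. Actb, Actg1, Axin2, Bmpr1a, Cacna1i, Calr, Canx, Casc4, Ccn1, Ccn2, Creld2, Ctcf, Derl3, Diaph2, Dnajc3, Eif2ak3, Eif5a2, Entpd1, Hk2, Hsp90b1, Krt7, Lrp6, Ltb4r1, Ltb4r2, Mpc1, Mpc2, Pdia3, Sel1l, Serpinb6a, Slc13a5, Slc2a1, Smarca5-ps, Syvn1, Tead2, Tle1, Tle3, Xrcc6, Zc3h11a and the Zfp genes other than Zfp72 were named after their values were seen. Some genes that the rule takes are not reported here. Alternatives were a pseudocount of 10 or 0.1, no filter or one at 100, quantile normalization, median centring, no mean-variance trend, the replicate number as a block, leaving out each library and, added after seeing the data, removal of a lowess trend with GC content.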

Additional observations from a re-analysis of the deposited data

How the results depend on the processing

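Smarca5 passed in limma under every alternative but the fit without the mean-variance trend, where its log2 difference was -4.32 (adjusted p = 0.111), 0 genes passed and 1261 had an unadjusted p under 0.05. With 1 library left out, the single library is taken to have the spread of the opposite group; the log2 difference of Smarca5 was -4.37 to -4.28 and 1 gene passed each time. The labels do not say that the replicate number pairs libraries, and each group has 2. Over 13404 genes, deviations of same-numbered libraries had r = 0.30 (rho = 0.36), a description across genes. With the number as a block 892 genes passed (418 higher, 474 lower) and Smarca5 kept its log2 difference of -4.32. Genes at least 2-fold higher without overlap were 126 with a filter at 100, 1259 with none, 310 with a pseudocount of 10 and 763 to 853 with 1 library left out; genes at least 2-fold lower were 82, 914, 204 and 546 to 624. Among genes named, values that changed sign were Actb (0.0523 after quantile normalization), Cdx2 (-0.0170 with the GC trend removed, -0.28 to 0.47 with 1 library left out, below 0 without NC replicate 2 or KD replicate 1), Syvn1 (-0.0240 and -0.14 to 0.29, below 0 without NC replicate 1), Inhbb (-0.10 to 2.69, below 0 without NC replicate 1) and Col1a1 (-0.0617 to 2.86, below 0 without NC replicate 2). Of 647 list medians recomputed under an alternative, 544 moved by less than the spread between libraries and 103 by more. The cause of these changes was not tested.

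Limits are set by 2 pools per group, by the spread at low abundance, and by the unknown method of knockdown. Nearly identical genes, such as the Fthl17 run and zinc finger genes, share reads, and their single values are uncertain.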

Other observations

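Zinc finger genes named Zfp were chosen as a family after their values were seen. Of 340 tested, 230 were lower in KD and 110 higher (32.4% higher, against 49.2% of all tested genes). Both KD libraries were below NC for 104 (30.6%, all genes 21.2%) and above for 51 (15.0%, all genes 20.7%). In the family 18 were at least 2-fold lower without overlap and 6 higher, against 2.63% and 4.04% of all tested genes. A cluster of such genes on chromosome 4 (145510759 to 147848366), a region of young, repeated KRAB zinc finger genes, stood out within the family. All 18 tested members there were lower in the mean, with log2 differences of -0.95 to -0.12 and a median of -0.70, and 13 had both KD libraries below NC. Their summed value was 8429 and 7441 in NC and 4556 and 5665 in KD. Zfp985 was 1184 and 1289 in NC and 689 and 832 in KD, Zfp981 was 590 and 710 in NC and 315 and 389 in KD, and Zfp982 was 542 and 489 in NC and 236 and 327 in KD (limma adjusted p = 0.376 for Zfp982). None passed the adjusted test. The genes are rich in A and T (median GC 36.1%), and with the GC trend removed the median was -0.58. The 322 other Zfp genes (median GC 43.7%) had a median of -0.12, and of -0.09 with the GC trend removed. Among them Zfp667 was 136 and 162 in NC and 57.8 and 41.8 in KD, and Zfp703 was 893 and 929 in NC and 1324 and 1577 in KD. Copies in the cluster are alike, so reads could be split among them.

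Other families taken after seeing the data had medians near that of all genes: -0.04 for 201 solute carriers, -0.03 for 46 Rab GTPases, -0.04 for 30 kinesins, -0.03 for 37 proteasome subunits and -0.02 for 50 translation initiation factors. Slc13a5, a citrate transporter, was 41.2 and 34.0 in NC and 3.27 and 8.10 in KD, and Eif5a2 was 76.1 and 97.2 in NC and 199.9 and 207 in KD. Runs of at least 3 neighbouring genes at least 2-fold apart in one direction numbered 2, the Fthl17 run and Ltb4r2, Ltb4r1 and Nfatc4 on chromosome 14 (55761428 to 55833943), all higher in KD. By chromosome, 5.61% of 1105 genes on chromosome 7 and 5.80% of 448 on chromosome 14 were at least 2-fold higher without overlap, against 4.04% of all tested genes. Their shares at least 2-fold lower, 2.81% and 3.35%, were also above that of all tested genes (2.63%). On the X chromosome 5.01% were higher and 3.58% lower. These chromosomes were named after their values were seen.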
